A study of Mus musculus with 24 samples.

Results

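The miR-140 and miR-455 microRNAs were followed across 3 parts of the mouse eye. MicroRNAs are short RNAs cut from a hairpin precursor. Each hairpin can give a strand from its 5′ side (5p) and a strand from its 3′ side (3p). The members were all array targets whose deposited name began with mmu-miR-140- or mmu-miR-455-. There were 4 of them, miR-140-5p, miR-140-3p, miR-455-5p and miR-455-3p, among 696 mouse miRNAs on the array. The RNA came from C57BL/6J mice aged 34 days. From postnatal day 24 a frosted diffuser covered the right eye for 10 days, which deprives the eye of form vision and makes it grow too long, and the untreated left eye was the control. Of the 24 arrays, 12 held whole eye, with 6 from deprived and 6 from control eyes. Another 6 held sclera and 6 held retina, in each case 3 with myopia in the title and 3 with control. In whole eye the title, source name and phenotype of a sample name the same arm, and only a sentence of its description names the other. In retina and sclera the title names the opposite arm to the other labels, so these arms are called by title and the direction of their difference is unsettled. According to the labels 15 mice were used, with 6 named for the whole eye and 9 each for the dissected sclera and the dissected retina. How many mice went into an array is not stated, so a p-value reflects variation among these samples that may be partly technical.

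Both hairpins are best known from cartilage. In chondrocytes, the cells that make cartilage, miR-140 is abundant, its gene is switched on with SOX9, the transcription factor that sets cartilage identity, and mice that lack it have short bones and early joint wear. The miR-455 hairpin lies in the gene of a fibrillar collagen made by cartilage and is also expressed by chondrocytes. The sclera is the collagen-rich outer coat of the eye, made by fibroblasts, and its matrix holds cartilage proteoglycans such as aggrecan. The retina is the neural layer that lines it.

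The mature sequences are shown because the seed (bases 2 to 8, in capitals) decides which messages a miRNA can bind. They were taken from RefSeq (build GRCm38.p6), which matched 3 of the 4 members.
miR-140-3p: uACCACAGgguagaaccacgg
miR-455-5p: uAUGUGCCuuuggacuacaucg
miR-455-3p: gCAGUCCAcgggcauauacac
The 3 seeds differ from one another. Among 1679 mature mouse miRNAs in that table, the seed of miR-140-3p was shared with 1 other (miR-497b), that of miR-455-5p with 1 other (miR-5129-3p) and that of miR-455-3p with 0 others. The strands lie at chr8:107551288-107551308 (miR-140-3p), chr4:63256867-63256888 (miR-455-5p) and chr4:63256904-63256924 (miR-455-3p), all on the plus strand. The Mir140 gene lies inside the span of Wwp2 (chr8:107436334-107559290), which encodes an E3 ubiquitin ligase, and Mir455 inside that of Col27a1 (chr4:63214009-63334991), which encodes the alpha chain of type XXVII collagen. Both hairpins are known as intronic, though exons were not checked here.

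The Mir140 hairpin (chr8:107551244-107551313, GRCm38.p6, plus strand) shows where the array read each strand, with the bases that the miR-140 probes pair with in capitals, the 5p stretch first.
Mir140 hairpin: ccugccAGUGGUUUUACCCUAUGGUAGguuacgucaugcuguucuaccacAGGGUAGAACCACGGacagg
The probes of miR-140-5p pair with bases 7 to 27 and those of miR-140-3p with bases 51 to 65, so no probe could read both strands. Each member had 2 probes of 10 spots each, which differ by 1 base. The miR-455 probes are shown, 5′ to 3′, because the shorter and the longer probe of a strand differed in how often they rose above background; the capital is the base that only the longer probe has.
miR-455-5p, short probe: cgatgtagtccaaaggc
miR-455-5p, long probe: cgatgtagtccaaaggcA
miR-455-3p, short probe: gtgtatatgcccgtg
miR-455-3p, long probe: gtgtatatgcccgtgG
In the build of the file headers (mm9) the long probes cover chr4:62917905-62917922 (miR-455-5p) and chr4:62917943-62917958 (miR-455-3p).

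Between 274 and 401 miRNAs were detected per array, fewest in sclera. The signal of the bright corner control spots, a measure of array quality, also differed by tissue. It was 104.2 to 163.0 in sclera, 195.9 to 575.7 in retina and 136.6 to 486.8 in whole eye. Its part in the tissue differences was not tested. Each of the 3 slides carried arrays of all 6 groups, but a group kept its place on the slide, so place and group cannot be told apart. Values below are log2 scaled signals: a miRNA's processed signal relative to the 75th percentile, on the same array, of the 237 miRNAs that every array detected, with dim values set to a floor of -7.69. Levels are compared only within 1 miRNA, since probes respond differently. The lists of marker miRNAs bore out the tissue labels in part. The 6 neuronal and photoreceptor markers were lower in sclera than in retina by 4.14 to 4.91 log2 units in size, yet all 6 were still detected on every sclera array. The 3 fibroblast markers were each detected on 6 of 6 sclera arrays. In retina miR-214-3p was detected on 0 of 6 arrays, but miR-199a-3p and miR-199a-5p on 6 of 6. The sclera titled control replicate 3 stood apart in several results below, which are given with and without it. It had the fewest detected miRNAs (274) and the lowest summed level of the neuronal list (1.57 on the log2 scale, against 2.57 to 4.03 on the other sclera arrays).

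All 4 strands were higher in sclera than in retina and in whole eye, and this was the clearest difference in their levels. The miR-140 strands were 3.89-fold to 5.10-fold higher in sclera than in retina, and miR-455-3p was 17.4-fold higher. These sizes depended on the processing, and were smallest with normexp background correction. Over the alternatives the log2 differences ran from 1.81 to 3.13 (miR-140-3p), 1.47 to 2.74 (miR-140-5p) and 2.02 to 4.88 (miR-455-3p). Whole eye sat with retina for miR-140 and between retina and sclera for miR-455, though both placements depended on the processing. In such tissue samples, more cells of a type and more RNA per cell cannot be told apart.

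The miR-140-5p strand, long taken as the main product of its hairpin, was detected on 24 of 24 arrays. Its log2 scaled signals in sclera were 0.71, 0.96 and 0.78 in the titled controls and 1.18, 0.94 and 1.13 in the titled myopia arrays. The retina values were -1.12, -1.02 and -0.88 (titled control) and -1.07, -1.03 and -0.95 (titled myopia). Every sclera array lay above every retina array, and within retina the arms overlapped. Whole eye ran from -1.40 through a median of -1.21 to -1.17 in controls and from -1.42 through -1.07 to -0.90 in myopia. All 6 whole-eye controls lay below every retina array, and the myopia arrays overlapped with retina. The mean was 0.95 ± 0.18 (SD, n = 6) in sclera, -1.01 ± 0.09 (n = 6) in retina and -1.18 ± 0.17 (n = 12) in whole eye.

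The miR-140-3p strand, which also accumulates in cartilage, was likewise detected on 24 of 24 arrays. Its values in sclera were 0.67, 0.83 and 1.27 in the titled controls and 1.03, 0.77 and 0.86 in titled myopia. In retina they were -1.51, -1.43 and -1.37 (titled control) and -1.50, -1.45 and -1.41 (titled myopia). Whole eye ran from -1.73 through -1.44 to -1.35 in controls and from -1.53 through -1.42 to -1.23 in myopia. Retina was the tightest group, with an SD of 0.05 (n = 6) around -1.45, and it lay inside the range of whole eye. The sclera mean was 0.91 ± 0.21 (n = 6), and the highest value belonged to the titled control replicate 3.

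The miR-455-3p strand was detected on 24 of 24 arrays and separated all 3 tissues. Its values in sclera were -2.47, -2.70 and -1.85 in titled control and -2.43, -2.42 and -2.43 in titled myopia. Whole eye ran from -5.09 through -4.62 to -4.14 in controls and from -4.84 through -4.62 to -4.26 in myopia. The retina values were -6.64, -6.57 and -5.96 in titled control and -6.61, -6.75 and -6.52 in titled myopia. No array of one tissue reached the range of the next, and the highest retina array was the titled control replicate 3.

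The miR-455-5p strand was near the detection limit outside sclera. It was detected on 6 of 6 sclera arrays, 11 of 12 whole-eye arrays and 1 of 6 retina arrays. Its values in sclera were -3.78, -3.95 and -4.38 (titled control) and -3.92, -3.83 and -3.97 (titled myopia). Whole eye ran from -6.55 through -5.68 to -5.19 in controls and from -6.37 through -5.94 to -5.44 in myopia, where the lowest array was the undetected one. The only retina array that detected it was the titled control replicate 3, at -6.90; the others were undetected, 3 of them at the floor. That retina array also had the highest summed fibroblast list of the 6 (-2.25, against -4.39 to -4.06 on the others), the highest muscle list (-1.23), and was the only one to detect all 4 markers of cornea and lens epithelium. The part of these cell types in its miR-455 level was not tested.

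**Figure D1:**
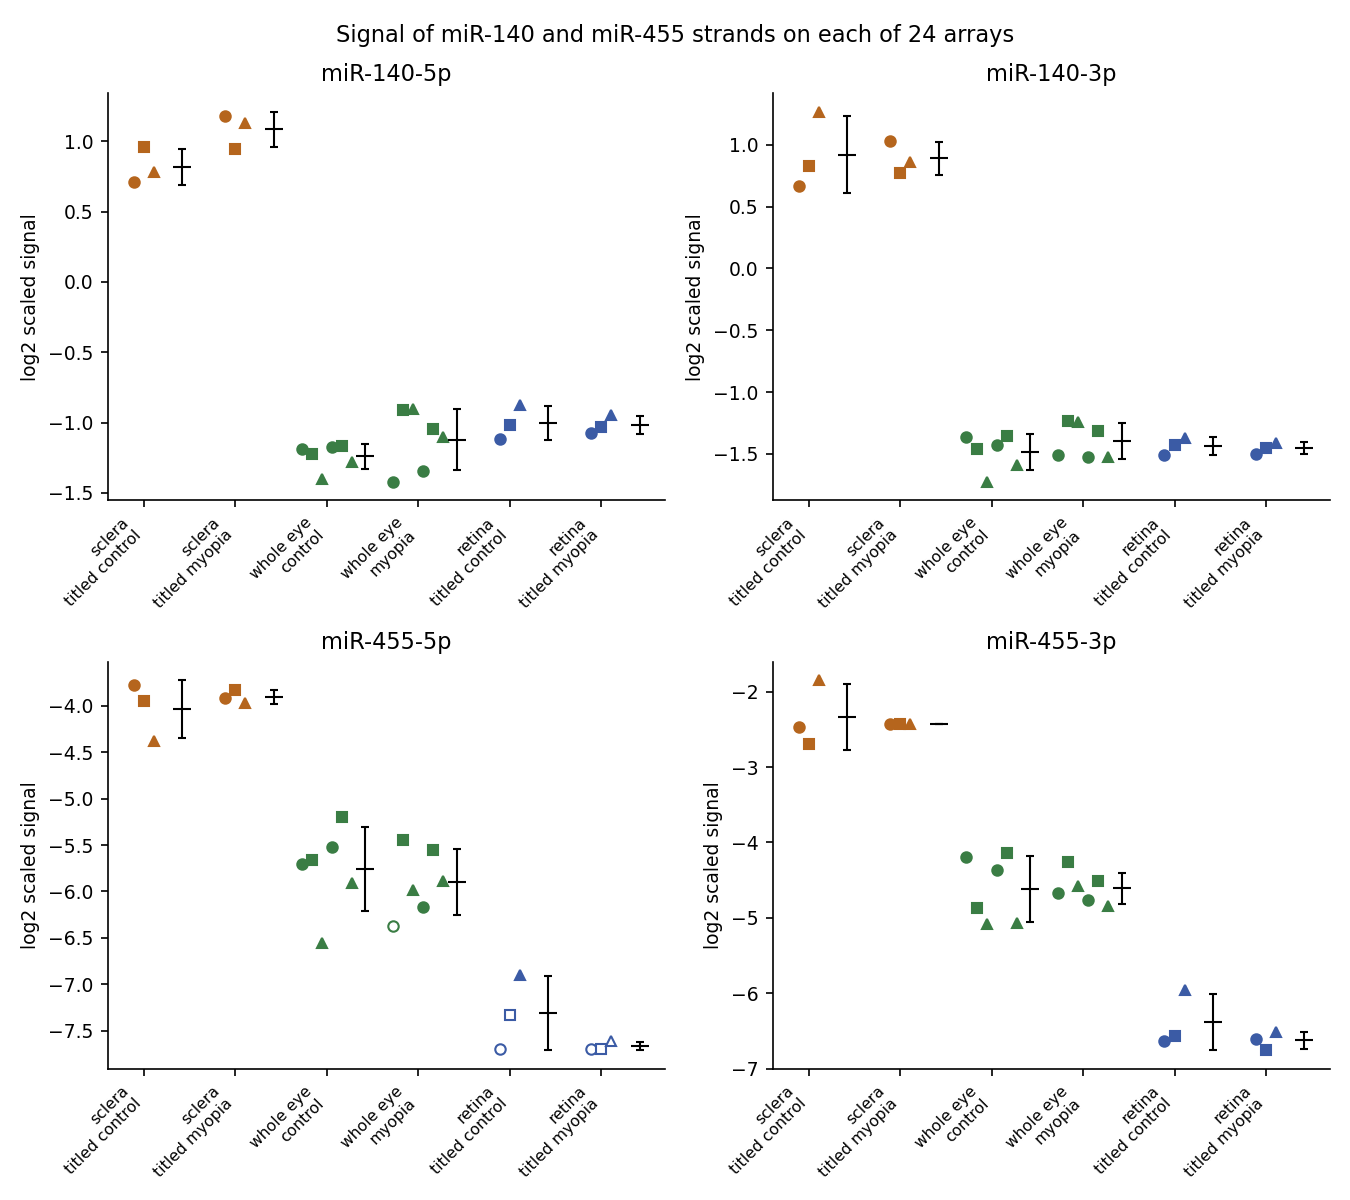
Log2 scaled signal (y axis) of the 4 strands on each array, by the 6 title groups (x axis). Circles, squares and triangles are slides 1, 2 and 3, open symbols are undetected, and the bar beside each group is its mean ± SD. The 6 sclera arrays lie above all others in every panel, and 5 of 6 retina arrays are undetected for miR-455-5p.

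The sclera was compared with retina to ask how the strands are distributed between the coat and the neural layer. With limma and Benjamini-Hochberg adjustment over the 426 miRNAs tested, all 4 members were called higher in sclera, where 30.5% of all miRNAs tested were. In all 4 every sclera array lay above every retina array, which held for 25.4% of those tested. The log2 difference was 2.35 (SE 0.09, limma adjusted p = 1.53e-15) for miR-140-3p, which made it 5.10-fold higher. It was 1.96 (SE 0.09, limma adjusted p = 9.17e-15) for miR-140-5p. For miR-455-3p it was 4.12 (SE 0.18, limma adjusted p = 7.65e-15), the 15th highest of the 426. That of miR-455-3p was 2.02 with normexp background correction, 3.25 in the deposited value table, 4.71 with quantile normalisation and 4.88 with scaling over all miRNAs, all called. Scaling over all miRNAs also gave more for miR-140-3p (3.13) and miR-140-5p (2.74), and moved the median of all tested from -0.81 to -0.076. With normexp miR-140-3p and miR-140-5p gave less (1.81 and 1.47), while that median was 0.85. With quantile normalisation the median was -0.20. For miR-455-5p the sclera was at least 13.0-fold higher than titled myopia retina, where 0 of 3 arrays detected it, and at least 12.4-fold higher than the 5 undetected retina arrays. For these bounds the sclera mean was set against the strand's own signal on each undetected array, or against the dimmest detected signal there if that was higher. The bounds hold for this background treatment only. The fitted difference, 3.52 (limma adjusted p = 4.56e-13), rests on undetected retina signals and was 1.57 with normexp and 2.01 in the value table. The median of all miRNAs tested was -0.81 in this comparison.

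Sclera also exceeded whole eye, which contains it, for each strand. All 4 members were called higher, against 30.8% of all tested, and no whole-eye array reached a sclera array in any of them, which held for 20% of those tested. The log2 differences were 2.35 (95% interval 2.18 to 2.51) for miR-140-3p, 2.13 (1.97 to 2.29) for miR-140-5p, 2.23 (1.90 to 2.55) for miR-455-3p and 1.86 (1.51 to 2.21) for miR-455-5p. The limma adjusted p-values ran from 2.18e-16 to 2.51e-09. With normexp that of miR-455-3p was 1.56, still called. Within each slide the sclera arrays were higher too, by 1.58 to 2.75 over the 4 strands. The 4 strands stood between the 17th and the 29th highest of 426.

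Without the sclera titled control replicate 3, the differences from retina were 2.36 (miR-140-3p), 2.06 (miR-140-5p) and 4.10 (miR-455-3p), and all 4 strands were still called. Without the retina titled control replicate 3, they were 2.37, 1.99 and 4.23, and all 4 strands were again called. Of the other lists of cell type markers, most were also higher in sclera than in retina. The 3 fibroblast markers, miR-199a-3p, miR-199a-5p and miR-214-3p, were higher in sclera than in retina by 7.75 to 8.01 in the fit, where miR-214-3p rests on undetected retina signals, and their summed level ran from 3.91 to 4.23 in sclera and from -4.39 to -2.25 in retina. The muscle markers rose in 4 of 4, with summed levels of 1.90 to 2.83 in sclera and -2.05 to -1.23 in retina. The epithelial markers rose in 4 of 4 against retina but in 0 of 4 against whole eye, with summed levels of 0.27 to 3.25 in sclera and 3.21 to 4.15 in whole eye. The endothelial markers rose in 2 of 2 (summed levels 1.78 to 2.27 in sclera, 0.20 to 0.45 in retina), as did the smooth muscle markers (-0.83 to -0.49, against -4.25 to -3.05). Of the 2 erythrocyte markers measured, miR-451 rose by 1.86 and miR-144-3p gave 0.41 without passing, with summed levels of 0.0011 to 0.32 in sclera and -2.02 to -1.36 in retina. The 2 pigment epithelium markers went the other way, at -0.95 (miR-204-5p) and -1.55 (miR-211-5p), with summed levels of 2.80 to 4.04 in sclera and 4.42 to 4.73 in retina. The part of these cell types in the level of miR-140 and miR-455 was not tested.

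Beside the members stand miR-199 and miR-214, the miRNAs of connective tissue cells, with 5 strands on the array. The sclera minus retina differences of 4 of them (miR-199a-3p, miR-199a-5p, miR-199b-5p and miR-214-3p) were 7.75 to 8.30, and that of miR-214-5p was -2.48. Against whole eye the same 4 gave 3.10 to 3.46 and miR-214-5p gave 1.14. The retina arrays detected miR-199a-3p, miR-199a-5p and both miR-140 strands on 6 of 6, but miR-214-3p on 0 of 6.

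The whole eye set against retina parted the 2 hairpins. The miR-455 strands were called higher in whole eye, 2 of 4 members against 23% of all tested, and every whole-eye array lay above every retina array in both, which held for 16.9% of those tested. The log2 difference was 1.89 (SE 0.16, limma adjusted p = 5.47e-10) for miR-455-3p. Whole eye was at least 3.58-fold higher for miR-455-5p than titled myopia retina, and at least 3.43-fold higher than the 5 undetected retina arrays. These bounds hold for this background treatment only. The fitted difference of miR-455-5p, 1.66 (limma adjusted p = 1.39e-08), rests on undetected retina signals. For miR-140-3p the log2 difference was 0.0057 (95% interval -0.16 to 0.17, limma adjusted p = 0.960), but it passed the test with scaling over all miRNAs (0.55), with quantile normalisation (0.43) and with the arrays of the 2 tissues alone (0.24). The miR-140-5p strand was called lower in whole eye by 0.17 in size (log2 difference -0.17, limma adjusted p = 0.0405), where 65% of all tested were called lower and the median was -0.70. That call was lost without any 1 of 9 arrays: control replicates 3 and 6 or myopia replicates 1 and 4 of whole eye, titled control replicates 2 and 3 or titled myopia replicates 2 and 3 of retina, and the sclera titled control replicate 3 (-0.10). It was lost too, with the direction kept, with normexp, the total gene signal, the value table, no detection filter, the replicate block, outlier spots kept and the first probe alone. Its direction turned with scaling over all miRNAs (0.38), with quantile normalisation (0.10) and with the arrays of the 2 tissues alone (0.061). Scaling over all miRNAs moved the median of all tested from -0.70 to -0.16. With normexp background correction, 0 of 4 members were called (0.46 for miR-455-3p, 0.22 for miR-455-5p). In the value table the difference of miR-455-5p was 0.54, still called. Fibroblast markers (3 of 3), epithelial markers (4 of 4), skeletal muscle markers (3 of 4), smooth muscle markers (2 of 2, at 2.17 and 2.24) and endothelial markers (2 of 2, at 0.50 and 0.62) were higher in whole eye than in retina as well, with summed fibroblast levels of 0.32 to 1.52 in whole eye; their part in miR-455 was not tested.

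**Figure D2:**
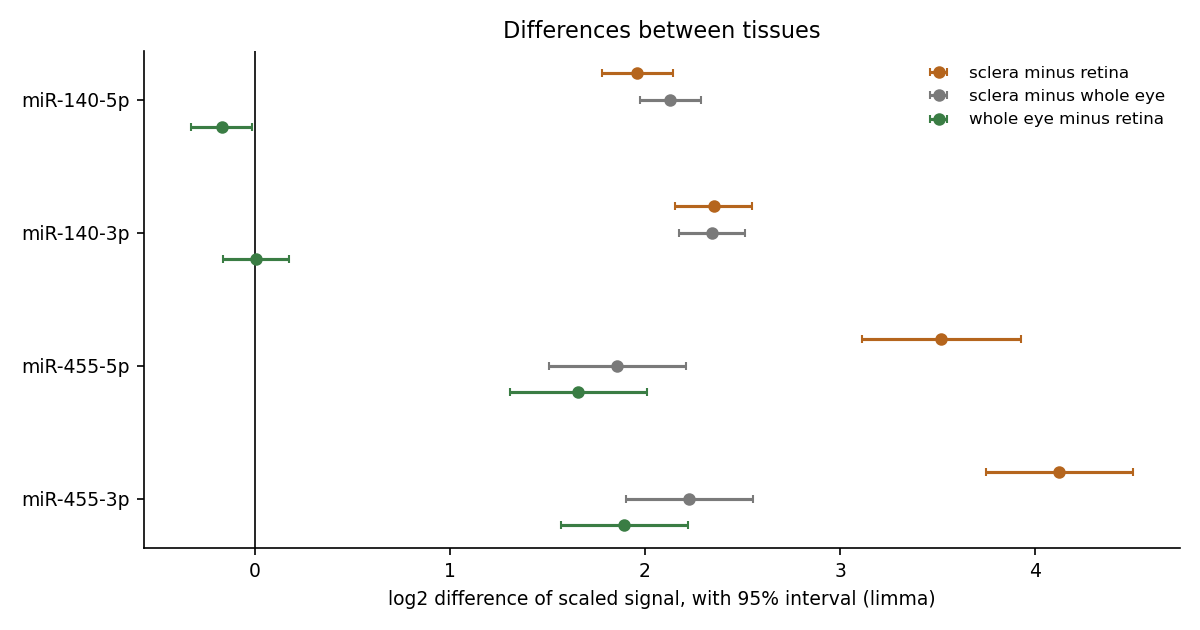
Log2 differences of scaled signal between tissues (x axis) for the 4 strands (y axis), with 95% intervals from limma over 24 arrays. Both comparisons with sclera lie well above 0 for each strand, while whole eye minus retina is near 0 for miR-140 and above 1 for miR-455. The miR-455-5p values against retina rest on 5 undetected retina arrays of 6.

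The probes bear on how well these differences were measured. For miR-140 all spots were well above background in each tissue, 60 of 60 in sclera and retina and 120 of 120 in whole eye for each of the 4 probes. Both probes of a miR-140 strand gave nearly the same sclera minus retina difference, 2.33 and 2.36 for miR-140-3p and 1.96 and 1.96 for miR-140-5p. For miR-455-3p the short probe was above background on 60 of 60 sclera spots, 7 of 120 whole-eye spots and 0 of 60 retina spots, and the long probe on 60, 119 and 32. For miR-455-5p the short probe was above background on 42 of 60, 1 of 120 and 0 of 60 spots, and the long probe on 59, 72 and 2. The long miR-455-3p probe gave a sclera minus retina difference of 4.02, with 32 of its 60 retina spots above background. For the other miR-455 probes the retina was at or near background, so their differences from retina are not given.

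**Figure D3:**
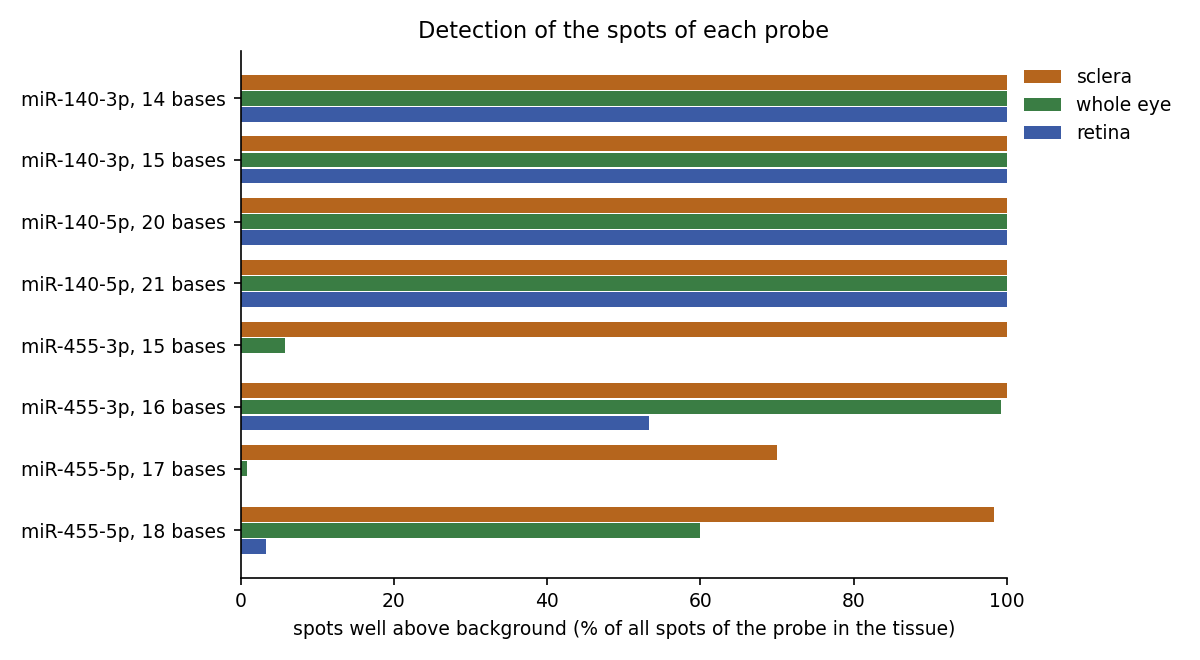
Spots well above background as a percent of all spots of a probe in a tissue (x axis) for the 8 probes, named by strand and length (y axis). The miR-140 probes reach the full share in each tissue, and the short miR-455 probes have no such spot in retina.

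The ratio of the 2 strands of a hairpin within an array is free of the array's scaling factor where neither strand is at the floor. Among these values 3 retina arrays have miR-455-5p at the floor, and quantile normalisation, which is no single factor, can also move a ratio. It is not a molar ratio, because probes respond differently, so only its differences between groups are compared. For miR-140 the log2 ratio of 5p over 3p was highest in retina and lowest in sclera. The retina values were 0.39, 0.42 and 0.49 (titled control) and 0.43, 0.42 and 0.46 (titled myopia). Whole eye ran from 0.17 through 0.25 to 0.32 in controls and from 0.09 through 0.30 to 0.43 in myopia. Sclera gave 0.04, 0.13 and -0.49 in titled control and 0.14, 0.17 and 0.27 in titled myopia. No sclera array reached the retina range, and the titled control replicate 3 lay far below the other sclera arrays.

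The mean ratio of miR-140 was lower in sclera than in retina by 0.39 in size (log2 difference -0.39). The exact permutation test (two-sided, n = 6 against 6) gave p = 0.00216, the smallest it can give, and 0.00433 adjusted over 74 hairpins. In that comparison 63.5% of the hairpins were called and 31.1% had all sclera arrays below all retina arrays. Whole eye was below retina by 0.18 in size (difference -0.18, exact permutation p = 0.000646, 0.00191 over the hairpins, of which 58.1% were called). Sclera was below whole eye by 0.22 in size (difference -0.22, exact permutation p = 0.00587, 0.0150 over the hairpins, of which 50% were called). Without the sclera titled control replicate 3 the difference from whole eye was -0.11, with an exact permutation p of 0.109 adjusted over the 12 strand comparisons, and that from retina was -0.28, still called. With quantile normalisation the difference from whole eye was -0.15 and not called. Of the 74 hairpins, 52 had a larger difference in size than miR-140 in each of the 3 comparisons.

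For miR-455 the ratio was lower in sclera than in retina as well, by 0.60 in size. Sclera gave -1.31, -1.25 and -2.53 in titled control and -1.49, -1.40 and -1.54 in titled myopia. Retina gave -1.06, -0.77 and -0.93 in titled control and -1.08, -0.95 and -1.10 in titled myopia, with the 5p strand detected on 1 of these 6 arrays and at the floor on 3. The difference was -0.60 (exact permutation p = 0.00216, 0.00433 over the hairpins), with no overlap. It was -0.42 without the sclera titled control replicate 3, still called. It was -0.43 and no longer called with signals left without a floor (exact permutation, adjusted p = 0.229) and with the total gene signal of the scanner software (0.0844). Sclera against whole eye gave -0.37 (exact permutation p = 0.0440, 0.0794 over the hairpins) and whole eye against retina -0.24 (exact permutation p = 0.0740, 0.112 over the hairpins). Neither passed, and both moved with the processing. Whole eye against retina passed with normexp (-0.24), outlier spots kept (-0.46), the first probe alone (-0.57), the second probe alone (-0.42), quantile normalisation (-0.72) and the deposited value table (-0.80). Sclera against whole eye passed with the value table (-0.43), with the second probe alone (-0.42) and without whole-eye myopia replicate 1 (-0.41). Other alternatives shrank the difference to as little as -0.033 for sclera against whole eye and -0.058 for whole eye against retina. Within slides, sclera against whole eye ran from -0.85 to 0.050.

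The titled control replicate 3 was low in the strand ratio of other hairpins too. Over the 29 hairpins with both strands detected on all 6 sclera arrays, its ratio lay below the mean of the other 5 arrays in 20, with a median deviation of -0.47. Its deviation was -0.64 for miR-140 and -1.13 for miR-455. On the other 5 arrays the median deviation ran from 0.04 to 0.12.

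**Figure D4:**
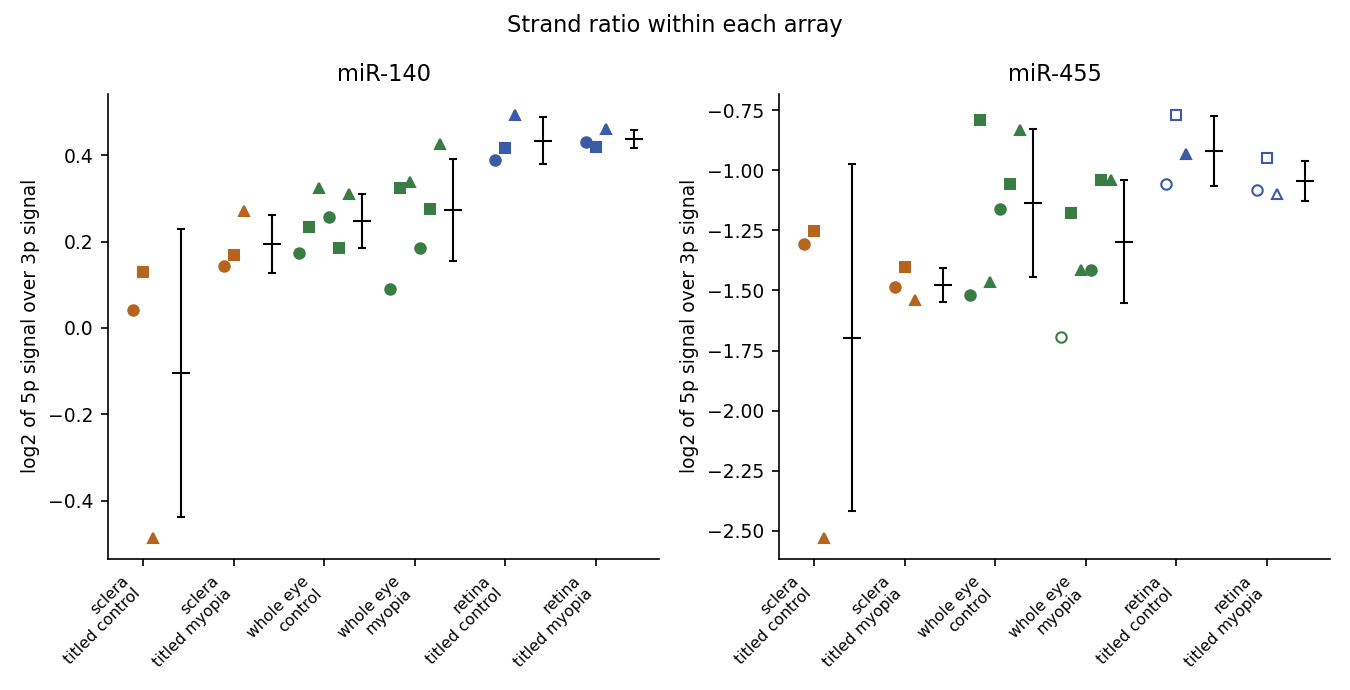
Log2 of the 5p over the 3p signal on each array (y axis) by title group (x axis) for miR-140 and miR-455. Circles, squares and triangles are slides 1, 2 and 3, open symbols have a strand undetected, and bars show mean ± SD. Sclera titled control replicate 3, at -0.49 and -2.53, lies below every other array.

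Form deprivation was compared with control in whole eye to ask whether the strands change as myopia develops. With limma, 0 of 4 members were called, against 10.3% of the 341 miRNAs tested in that tissue (84 of 341 had an unadjusted p under 0.05). On a scale set over the 12 whole-eye arrays, miR-140-5p was -0.47 in myopia and -0.68 in control, a difference of 0.21 (95% interval 0.01 to 0.40, limma adjusted p = 0.190). The difference for miR-140-3p was 0.18 (95% interval 0.00 to 0.36, limma adjusted p = 0.202). For miR-455-3p it was 0.10 (-0.28 to 0.48) and for miR-455-5p -0.06 (-0.48 to 0.36), but with quantile normalisation miR-455-5p was -0.59 and called lower in myopia (limma adjusted p = 0.0397). The median of all miRNAs tested was 0.08.

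Among the myopia arrays of whole eye, miR-140-5p was lowest on slide 1. On the scale of all 24 arrays both slide 1 arrays, at -1.42 and -1.34, lay below the other 4, which ran from -1.10 to -0.90. The group means on that scale were -1.12 in myopia and -1.24 in control. On the scale of the 12 whole-eye arrays, the difference from control within a slide ran from -0.060 (slide 1) to 0.47 (slide 3). With slide as a block it stayed at 0.21 and uncalled (limma adjusted p = 0.205). Without myopia replicate 1, which is on slide 1, it was 0.27 and passed (limma adjusted p = 0.0317). Array quality also moved with the arm: the bright corner control spots gave a signal of 136.6 to 229.8 in control and 225.7 to 486.8 in myopia, and its part was not tested.

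In retina, 0 of 3 members tested were called between titled myopia and titled control, where 0% of the 396 miRNAs tested were called with limma and 20 had an unadjusted p under 0.05. The miR-455-5p strand was not tested, having been detected on too few arrays. On a scale set over the 6 retina arrays, the log2 differences were -0.07 (95% interval -0.40 to 0.26) for miR-140-3p, -0.07 (-0.43 to 0.29) for miR-140-5p and -0.29 (-0.84 to 0.26) for miR-455-3p. Without the titled control replicate 1 they were -0.22, -0.23 and -0.52, with the lowest limma adjusted p at 0.116, and 55 of the 396 miRNAs were then called, none of them a member.

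In sclera, 0 of 4 members were called between the titled arms, where 0% of the 311 miRNAs tested were called with limma and 7 had an unadjusted p under 0.05. The largest difference was that of miR-140-5p, 0.43 (95% interval 0.05 to 0.81, unadjusted p = 0.0312 and limma adjusted p = 0.887), and 0.27 without titled control replicate 3. The others were 0.13 (-0.24 to 0.51) for miR-140-3p, 0.08 (-0.37 to 0.53) for miR-455-3p and 0.30 (-0.29 to 0.88) for miR-455-5p. These differences are on a scale set over the 6 sclera arrays. On the scale of all 24 arrays, miR-140-3p and miR-455-3p went the other way, while miR-140-5p and miR-455-5p kept their direction. There the mean of miR-140-3p was 0.89 in titled myopia and 0.92 in titled control, and that of miR-455-3p -2.43 and -2.34. The intervals leave room for changes of the size seen in whole eye. The strand ratio between arms was called in 0 of 6 comparisons; with 3 arrays a side, the exact permutation test in retina and sclera cannot go below 0.1.

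The arm effect of a strand did not differ detectably between tissues. With limma over 24 arrays, 0 of 4 members were called for sclera against whole eye (2.35% of all tested were), 0 of 4 for retina against whole eye (1.17%) and 0 of 4 for sclera against retina (1.64%). The widest of these was that of miR-455-5p for sclera against retina, 0.49 (95% interval -0.33 to 1.31). With the sclera and retina arms read from the phenotype field, 0 of 4 were called against whole eye as well.

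The miRNAs whose profile over the 24 arrays was nearest to each strand were found as the smallest root mean square difference of log2 scaled signals, each centred on its own mean, among 425 others. For miR-140-3p the nearest were miR-675-3p (0.12), miR-140-5p (0.20), miR-379-5p (0.21), miR-411-5p (0.26) and miR-542-3p (0.30). For miR-140-5p they were miR-379-5p (0.13), miR-411-5p (0.18), miR-140-3p (0.20), miR-675-3p (0.23) and miR-411-3p (0.29). The strands miR-675-3p and miR-542-3p were detected on 6 and 5 of 24 arrays, so elsewhere their profile is the floor or close to it. For miR-455-3p the nearest were miR-152-3p (0.25), miR-146a-5p (0.26), miR-23a-3p (0.34), miR-223-3p (0.34) and miR-455-5p (0.37). For miR-455-5p they were miR-23a-3p (0.26), miR-503-5p (0.27), miR-322-5p (0.28), miR-146a-5p (0.32) and miR-27a-3p (0.34). Of these, miR-503-5p was detected on 17 of 24 arrays and had a retina mean at the floor. The miR-455-5p strand itself was detected on 1 of 6 retina arrays, so their likeness there is partly that of dim signals. The strands of a hairpin were thus among each other's nearest 8, while miR-455-3p ranked 78th from miR-140-3p and 118th from miR-140-5p, at 0.83 and 0.95. Seen from miR-455-3p, the same distances ranked miR-140-3p 29th and miR-140-5p 39th.

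Of 26 other miRNAs linked to cartilage, 25 were on the array and 24 were tested. Against retina, 12 of 24 were called higher in sclera, where 30.5% of all tested were, and 10 lower, with a median difference of 0.63, beside -0.81 for all miRNAs tested. The highest were miR-146a-5p at 3.88, an inflammation-linked miRNA, miR-145-5p at 3.41, which is also a smooth muscle marker, and miR-27a-3p at 2.73. The lowest were miR-210-3p at -3.03, which is induced by low oxygen, miR-29c-3p at -2.80, of a family that targets collagen messages, and miR-495-3p at -2.24. Against whole eye, 16 were called higher, where 30.8% of all tested were, and 7 lower, with a median of 0.91, beside -0.15 for all tested. Both higher counts include miR-675-3p, which was detected on the sclera arrays only. With slide as a block, 382 of all 426 miRNAs tested were called in either direction against retina, and 310 against whole eye. These 2 totals join both directions, so they do not give the share of all tested that was lower. Differences in the list thus ran both ways, though its median lay above that of all tested in both comparisons. The list was chosen with earlier results of these data known. In the main fit the miR-455-3p strand, at 4.12, exceeded each of the 24 listed miRNAs tested in its difference from retina. Its own value was 2.02 with normexp and 3.25 in the deposited value table, where the listed miRNAs were not compared.

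**Figure D5:**
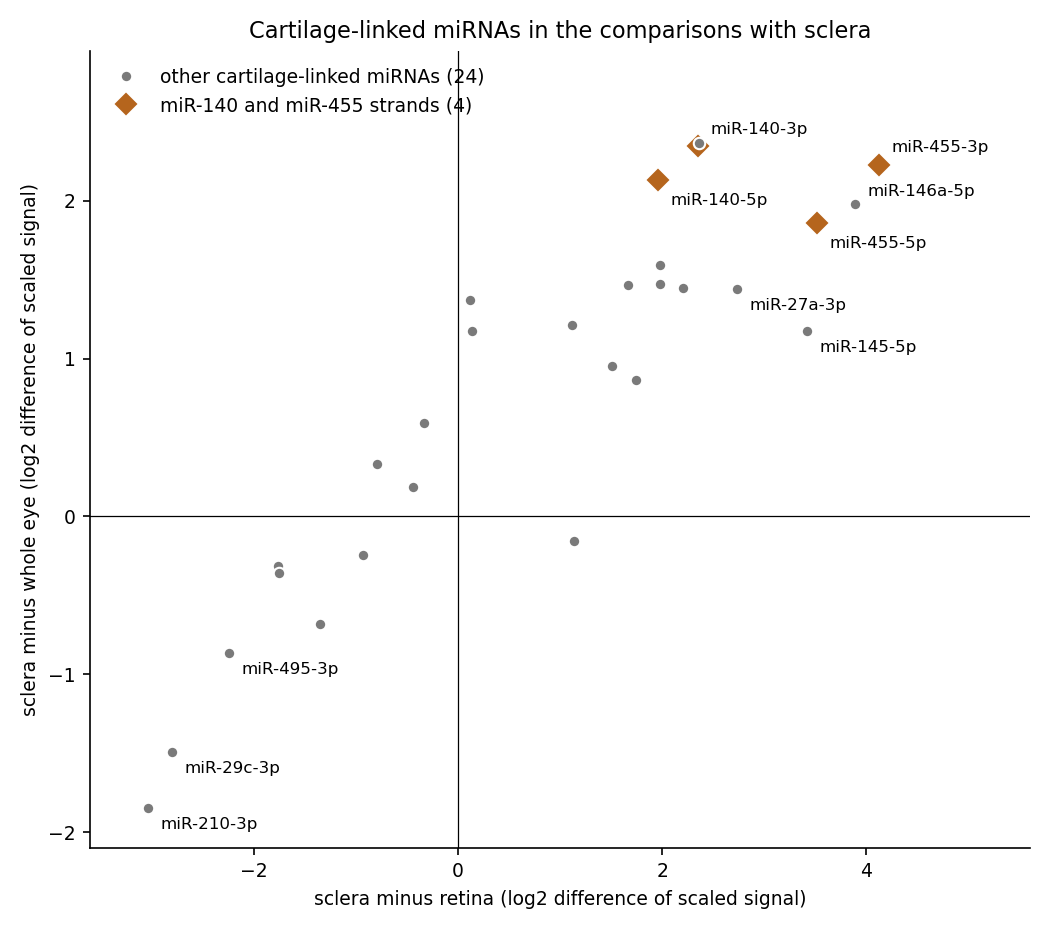
Log2 differences of scaled signal, sclera minus retina (x axis) and sclera minus whole eye (y axis), for 24 other cartilage-linked miRNAs (circles) and the 4 strands (diamonds). The 4 strands lie between 1.86 and 2.35 on the y axis, and the circles range from -1.85 to 2.37. The circle on the miR-140-3p diamond is miR-675-3p, which was detected in sclera only.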

How the data were processed

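Cy3-labelled total RNA was hybridised to single-colour Agilent mouse miRNA arrays, per the labels. The deposited scanner files hold intensity per spot from Agilent Feature Extraction (11, per the submitters' processing notes), spatially detrended per the file headers. The deposited value table, on a log2 scale, served as an alternative; the sources used here do not name its tool. Unflagged spots were averaged per probe, summed per miRNA, scaled by the 75th percentile over miRNAs detected on all arrays of a fit, floored at the median lowest detected signal and log2 transformed. A miRNA was tested if detected on 2 of every 3 arrays of a group. Levels were tested two-sided in R 4.3.3 with lmFit and eBayes of limma 3.58.1 (Benjamini-Hochberg over all miRNAs tested, threshold 0.05), with arms fitted per tissue and tissues over 24 arrays; settings were tested on simulated data. Strand ratios used exact permutation tests, two-sided, adjusted over 12 strand comparisons or 74 hairpins. The number of arrays limits precision. Whether same-numbered arrays share a mouse was not settled: correlations of same-numbered deviations ran from -0.37 to 0.64. Arms and tissues were tested as independent groups in the main tests. The mice named by tissue (6 for whole eye, 9 each for sclera and retina) exceed the 15 used, so some mice gave more than 1 tissue. Control eyes were the left eyes of deprived mice, so the arms come from the same mice. Which arrays share a mouse is not stated, and the main tests did not use this pairing. Every table column was mapped to a sample (0 unmapped). Members and lists were chosen with earlier results of these data known. Other miRNAs named are the 5 nearest profiles of each member, the 3 highest and 3 lowest of the cartilage list, marker examples, and miR-199 and miR-214. Alternatives covered scaling, background, spot summary, filter, floor, slide and each array left out.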

Additional observations from a re-analysis of the deposited data

Results flagged for a closer look

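Of 24 checks over groups of 6 arrays, 5 had an end array whose gap to its neighbour was over the 95% limit of Dixon's test, where chance gives about 1 in 20; the checks share arrays. The sclera titled control replicate 3 was high for miR-455-3p (-1.85, nearest -2.42) and low for miR-455-5p (-4.38, nearest -3.97). Its log2 ratio of 5p over 3p was low for miR-140 (-0.49, nearest 0.04) and for miR-455 (-2.53, nearest -1.54). The retina titled control replicate 3 was high for miR-455-3p (-5.96, nearest -6.52).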

How the results depend on the processing

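The comparisons of the 4 members and of the strand ratios were repeated under each alternative, with 11 counts of calls compared 360 times. The count stayed within 1.5 times its value in 356 of these, the exceptions being the 4 that follow. With normexp background correction the members called between whole eye and retina went from 3 to 0. In the whole-eye arms the count went from 0 to 1 with quantile normalisation (miR-455-5p) and to 1 without myopia replicate 1; leaving out each array in turn gave 0 to 1. With the replicate block, the strand ratios called between tissues went from 4 to 0, with their directions kept. For miR-140 the sign-flip test over 6 pairs gave an adjusted p of 0.094 for sclera and for whole eye against retina. It gave 0.15 for sclera against whole eye. For miR-455, sclera against retina, the sign-flip adjusted p was 0.094. With 6 pairs this test has few possible p-values. Whether same-numbered arrays share a mouse was not settled, and the replicate block otherwise gave 4, 4 and 2 members called in the tissue comparisons and 0 between arms. All 310 member values compared in the 2 sclera comparisons (slides alone set aside) kept their direction and their call; with normexp the differences from retina shrank to between 1.47 and 2.02.

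Directions turned only in results that were not called or were close to the threshold. Whole eye against retina turned for miR-140-3p with outlier spots kept (-0.011) and the first probe alone (-0.018), and ran from -0.012 to 0.073 with arrays left out. For miR-140-5p it turned with quantile normalisation (0.10), scaling over all miRNAs (0.38) and the 2 tissues alone (0.061). Myopia against control in whole eye turned with scaling over all miRNAs for miR-140-3p (-0.030), miR-140-5p (-0.0042) and miR-455-3p (-0.11). For miR-455-3p it also turned with quantile normalisation (-0.31), array weights (-0.033) and outlier spots kept (-0.0012). For miR-455-5p arrays left out gave -0.20 to 0.050, and for the miR-140 strand ratio -0.0046 to 0.062. In the sclera arms, quantile normalisation turned miR-140-3p (-0.077) and miR-455-3p (-0.028), and normexp turned miR-455-3p (-0.066) and miR-455-5p (-0.071). The group means on the scale of all 24 arrays also put miR-140-3p and miR-455-3p lower in titled myopia. Arrays left out gave -0.052 to 0.18 for miR-455-3p and -0.018 to 0.45 for miR-455-5p. The causes were not tested. Signal over background limits miR-455-5p in retina.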
